A study of Mus musculus with 24 samples.

Results

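Intraflagellar transport (IFT) is the traffic of protein trains along the microtubules of a cilium, and this account covers the genes of its complexes and motors in mouse retinal pigment epithelium (RPE). The set holds 33 named genes: the subunits of complexes IFT-B and IFT-A, the kinesin-2 and dynein-2 motors, the IFT-A adaptor Tulp3, and Trip11, the golgin that holds IFT20 at the Golgi. All 33 were found by symbol among the 31053 gene identifiers of the count tables. In cilia, kinesin-2 carries trains towards the tip, with IFT-B as the main cargo platform for tubulin, and dynein-2 carries them back with IFT-A. RPE cells can bear a primary cilium, and whether those sampled here did was not measured. The outer segment of the photoreceptors that the RPE faces is itself a modified cilium kept up by IFT.

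RNA of isolated RPE cells was counted in 24 libraries, 4 in each of 6 groups. Mutants carried a floxed Ift20 gene together with Dct-Cre, and controls carried Dct-Cre; both were taken 11 days (P11), 29 days (P29) and 3 months (3M) after birth. Every animal was thus Cre-positive, on a mixed background, with the sex not collected. Dct is a melanin synthesis gene, and the activity of its Cre driver was not measured here, in pigment cells or in others. The number of floxed copies, the exons deleted, any floxed allele in controls, and whether a library holds 1 animal or a pool are left unstated in the labels. They call the 4 libraries of a group biological replicates, so p-values measure the spread between these libraries.

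The libraries held 1513440 to 2889946 counts in genes, and the floor of 3 counts equalled 1.04 to 1.98 CPM (the count scaled to library size). The kit primes at the poly(A) tail and gives about 1 tag per transcript, so CPM is not scaled by gene length and can be set side by side between genes. The RPE markers Rpe65 and Rlbp1 were high in every library, Rpe65 at 1889 to 8859 CPM, while Best1, another RPE gene, lay between 0 and 6.64 CPM. The summed level of 16 rod genes was 19140 to 19647 CPM in P11 mutants against 15695 to 16809 CPM in P11 controls, 18955 to 20384 CPM in P29 mutants against 13450 to 14050 CPM in P29 controls, and 8805 to 9307 CPM in 3M mutants against 5046 to 5507 CPM in 3M controls. Rod RNA was thus present in every library, at a higher level in mutants at each age. Of 11 tested RPE markers, 0 were higher and 7 lower in P11 mutants, 2 higher and 5 lower in P29 mutants, and 0 higher and 1 lower in 3M mutants, each against controls of the same age. The 12 RPE markers summed to 67022 to 70465 CPM in 3M mutants against 67063 to 69908 CPM in 3M controls, and to less in mutants than in controls at P11 and P29, without overlap. Lens markers, 13 of 14 higher, summed to 1424 to 1557 CPM in P29 mutants against 299 to 327 CPM in P29 controls. Of 8 markers of multiciliated cells, Ccdc153 was at 0 in all 24 libraries and Foxj1 averaged 2.78 CPM at most, in P11 mutants. In such bulk samples, fewer cells of a type and less RNA per cell cannot be told apart. The P11 controls were the least alike group, with a mean correlation of each library with the others of its group of 0.885 to 0.898, against at least 0.932 in the other groups.

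Promoter sequence is shown for the genes that carry the genotype results, Ift20, Ift57 and Kif3a, as the 250 bases before the RefSeq start site (GRCm38.p6, plus strand in each). Capitals mark a match to the X-box type motif of RFX transcription factors, which drive many ciliary genes. The motif was searched as GTNNCC, 0 to 3 letters of any kind, then NGNAAC, on both strands, in windows of 250 bases before to 50 after the start.
Ift20, chr11:78536111-78536360: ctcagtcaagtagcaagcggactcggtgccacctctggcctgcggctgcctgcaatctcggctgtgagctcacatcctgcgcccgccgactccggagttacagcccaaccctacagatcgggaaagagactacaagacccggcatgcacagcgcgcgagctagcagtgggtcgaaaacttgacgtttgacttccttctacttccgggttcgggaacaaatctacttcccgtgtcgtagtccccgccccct
Ift57, chr16:49699044-49699293: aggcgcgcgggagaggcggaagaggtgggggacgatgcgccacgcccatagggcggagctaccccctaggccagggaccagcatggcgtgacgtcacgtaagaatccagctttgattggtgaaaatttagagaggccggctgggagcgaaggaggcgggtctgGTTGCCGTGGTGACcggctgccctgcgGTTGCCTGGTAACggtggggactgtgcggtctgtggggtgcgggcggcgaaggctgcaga
Kif3a, chr11:53567119-53567368: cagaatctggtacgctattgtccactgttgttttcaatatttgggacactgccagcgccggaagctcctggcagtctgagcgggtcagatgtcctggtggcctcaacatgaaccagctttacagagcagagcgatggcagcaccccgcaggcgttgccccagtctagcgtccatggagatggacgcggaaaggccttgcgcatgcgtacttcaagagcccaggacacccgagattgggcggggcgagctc

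The Ift57 window held 2 matches, as did that of Ift22, and those of Ift20 and Kif3a held none. Windows were found for 28 of the 33 genes, and 7 of these 28 (25%) held a match: Ift57, Ift22, Ift74, Ttc26, Ttc30a2, Kif17 and Trip11. Of all 32851 RefSeq windows searched, 1726 (5.25%) held one. The first match of each of 4 further members is shown with 12 bases on each side, to set their letters beside those of Ift57. The Ift74 match crosses the start site, from position -5 to 8.
Ift22, chr5:136908075-136908112: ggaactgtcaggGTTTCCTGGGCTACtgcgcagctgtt
Ift74, chr4:94614474-94614510: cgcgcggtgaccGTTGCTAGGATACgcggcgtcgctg
Ttc26, chr6:38381479-38381516: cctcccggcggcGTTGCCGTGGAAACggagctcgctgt
Trip11, minus strand, chr12:101913248-101913285: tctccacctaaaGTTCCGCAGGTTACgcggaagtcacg

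Levels ranged widely within the machinery. The kinesin-2 motor subunit Kif3b was the most abundant member, at a mean of 158 CPM over all libraries, followed by Trip11 at 139 CPM, Ift20 at 102 CPM, the dynein-2 heavy chain Dync2h1 at 81.1 CPM, the IFT-A subunit Wdr35 at 74.8 CPM, the kinesin-2 adaptor Kifap3 at 67.4 CPM and the IFT-B subunit Ift57 at 50.1 CPM. Another 18 members lay between 10 and 50 CPM and 8 lay under 10 CPM. The homodimeric kinesin-2 Kif17 had 54 counts in all, with 12 libraries at 0, and Ttc30a2, a copy of the IFT-B subunit gene Ttc30, had 4 counts, with 22 libraries at 0; these 2 did not pass the filter on low counts, which left 31 members for testing. Ttc30a1, Ttc30a2 and Ttc30b are close paralogs whose reads could have been split or lost in counting, so their values are uncertain. The median coefficient of variation within a group was 25.3% over the 31 tested members, against 13.8% from counting alone.

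Ift20, the targeted gene and a subunit of the peripheral part of IFT-B, was still counted in every mutant library. Its level was 76.7, 94.2, 90.7 and 80.8 CPM in P11 mutants, against 106, 93.8, 60.7 and 149.8 CPM in P11 controls. At P29 it was 70.1, 57.9, 88.8 and 68.6 CPM in mutants, against 121, 84.9, 124 and 102 CPM in controls. At 3M it was 115, 116, 117 and 97.4 CPM in mutants, against 118, 159.9, 126 and 133 CPM in controls. The mutant range lay inside the control range at P11, overlapped it at P29 through 1 library on each side, and lay wholly below it at 3M. Mutant over control, the log2 fold change of Ift20 at P29 was -0.60 (SE 0.15), a level 0.659 times that of controls, and passed the test there (edgeR quasi-likelihood, Benjamini-Hochberg adjusted p = 0.0112). It was -0.27 at P11 (SE 0.16, edgeR adjusted p = 0.353) and -0.26 at 3M (SE 0.15, edgeR adjusted p = 0.547). Averaged over the 3 ages, Ift20 was lower in mutants, at -0.38 (SE 0.09, edgeR adjusted p = 0.00178), 0.769 times the control level. At P29 significance was lost on leaving out control replicate 1 (edgeR adjusted p = 0.0714), control replicate 3 (0.0751) or mutant replicate 2 (0.0945), while the averaged call held when any 1 of the 24 libraries was left out. Tags come from the 3' end and the position of the deletion is not given, so these counts do not check the labels. At P29 the lens markers were higher in mutants and the RPE marker sum lower, and their part in the Ift20 difference was not tested.

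**Figure D1:**
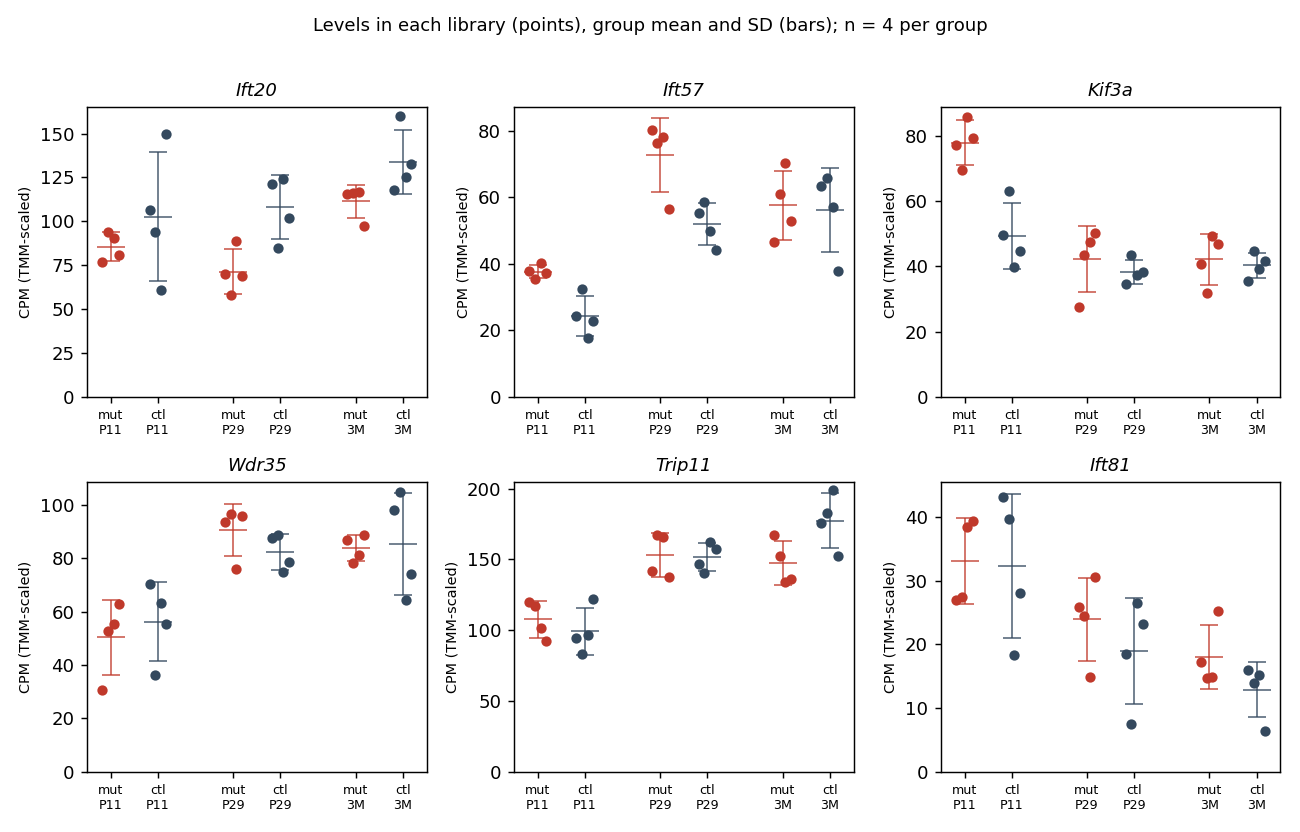
Level of 6 members in each library, in TMM-scaled CPM on axes that start at 0, with mutants (red) left of controls (blue) at each age; points are libraries, horizontal marks group means and bars SD, n = 4. Ift20 averaged 71.3 CPM in P29 mutants and 108 CPM in P29 controls, and Kif3a in P11 mutants, at 69.3 to 85.8 CPM, stood above all other groups.

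Against this small difference in Ift20, few other members of the machinery differed by genotype. Of the 31 tested members, 1 was higher and 0 lower in P11 mutants than in P11 controls, where 3.26% of the 12303 genes tested were called higher and 3.67% lower. In P29 mutants 0 were higher and 1, Ift20, was lower, beside 1.63% and 1.21% of all genes. In 3M mutants 0 were higher and 0 lower, beside 2.13% and 0.48% of all genes; 2 members had an unadjusted p under 0.05 there, and DESeq2 and voom with quality weights also called 0. Averaged over ages 1 was higher and 1 lower, beside 4.34% and 3.13%. The members' shares are thus near these backgrounds. The median log2 fold change of the 31 was 0.08 at P11, -0.03 at P29 and 0.00 at 3M, beside -0.0016, -0.0007 and 0.03 over all genes. In 19 of 31 members at P11, 19 at P29 and 17 at 3M, the 95% interval of the fold change lay within 2-fold in either direction, so for the others these data do not bound the difference at 2-fold.

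**Figure D2:**
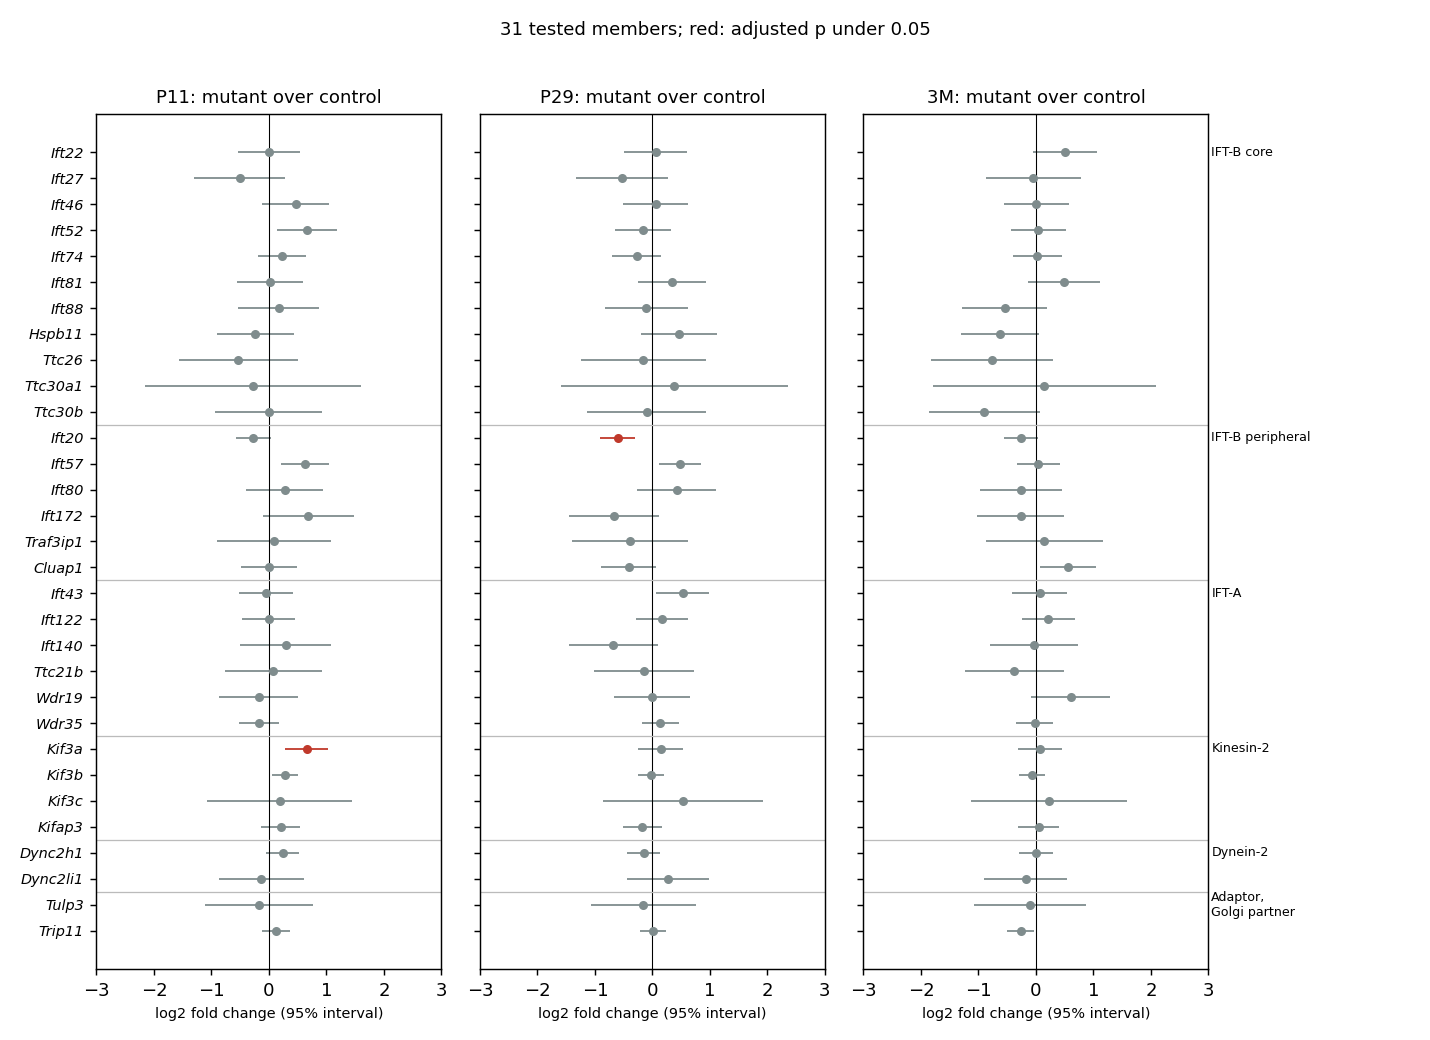
Log2 fold change of mutant over control for the 31 tested members at P11, P29 and 3M, with the 95% interval as a bar and members grouped by complex; red marks an adjusted p under 0.05. The 2 red points are Kif3a at P11 (0.66) and Ift20 at P29 (-0.60).

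Kinesin-2 drives trains outward, with Kif3a and Kif3b as its motor subunits and Kifap3 as their adaptor, and 1 of its subunits was the member called at P11. Kif3a was at 77.1, 69.3, 85.8 and 79.2 CPM in P11 mutants, against 49.5, 63.2, 39.9 and 44.6 CPM in P11 controls. The groups did not overlap, and Kif3a rose by 0.66 on the log2 scale (SE 0.19, edgeR adjusted p = 0.0185), 1.58 times the control level. At later ages it averaged 42.1 ± 10.1 CPM in P29 mutants and 38.4 ± 3.70 CPM in P29 controls, and 42.1 ± 7.81 CPM in 3M mutants and 40.2 ± 3.95 CPM in 3M controls (SD, n = 4 each), with overlapping groups. At P11 significance was lost on leaving out control replicate 3 (edgeR adjusted p = 0.0795) or mutant replicate 3 (0.0663). Kif3b averaged 178 ± 13.6 CPM in P11 mutants and 148 ± 30.7 CPM in P11 controls, a difference of 0.28 (SE 0.12) that did not pass the test (edgeR adjusted p = 0.158). Kifap3 averaged 83.8 ± 8.08 CPM in P11 mutants and 71.9 ± 24.5 CPM in P11 controls, and its difference of 0.20 (SE 0.18) did not pass either. Kif3c, an alternative partner of Kif3a, averaged 10.5 CPM in P11 mutants and 9.36 CPM in P11 controls. Its 3' end overlaps that of the antisense gene 1110002L01Rik over 2617 bases, and that gene had 686 counts against 309 of Kif3c; as the use of strand is not given, the 2 cannot be told apart. Summed over the 5 kinesin-2 genes, the level was 339 to 356 CPM in P11 mutants and 259 to 303 CPM in P11 controls, without overlap, and it overlapped between genotypes at P29 and 3M. Other measures moved with genotype at P11. Of 12 tested inner retinal neuron markers, 2 were higher and 0 lower in mutants. The sum of all 13 was 634 to 690 CPM in P11 mutants and 445 to 490 CPM in P11 controls. Of 10 stromal fibroblast markers, 0 were higher and 2 lower. The sum of the 10 was 2496 to 2776 CPM in P11 mutants and 3048 to 3370 CPM in P11 controls. The RPE markers, 7 of 11 lower, summed to 18844 to 19801 CPM in P11 mutants and 19807 to 20708 CPM in P11 controls. The rod sum was higher in mutants, while 13 endothelial markers, of which 6 of 12 tested fell, summed to 201 to 237 CPM in P11 mutants and 428 to 464 CPM in P11 controls. The myelin markers, 5 of 5 tested lower, summed to 41.8 to 65.0 CPM in P11 mutants and 347 to 473 CPM in P11 controls; 6 of 14 lens and 3 of 6 pericyte markers were lower too. Mitochondrial genes took 10.2% to 11.1% of gene counts in P11 mutants and 7.30% to 8.79% in P11 controls. The entry for reads with no feature took 26.5% to 27.5% of all counts in P11 mutants and 22.7% to 24.1% in P11 controls. The part of these shifts in the kinesin-2 values, and in the other P11 calls, was not tested.

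Ift57, a subunit of peripheral IFT-B that links the peripheral subunits to the core, was the member called higher over the ages combined. It was at 37.8, 35.3, 40.2 and 37.4 CPM in P11 mutants, against 24.4, 32.5, 17.7 and 22.8 CPM in P11 controls, with no overlap. In P29 mutants it was 80.2, 76.4, 78.1 and 56.4 CPM, against 55.3, 58.6, 49.8 and 44.1 CPM in P29 controls. Only mutant replicate 4 of P29 fell into the control range. In 3M mutants it was 46.5, 61.0, 70.5 and 52.8 CPM, against 63.5, 65.9, 57.1 and 38.0 CPM in 3M controls, with wide overlap. Averaged over ages Ift57 was 0.38 higher on the log2 scale (SE 0.11, edgeR adjusted p = 0.0196), 1.30 times the control level. That call was lost without control 3M replicate 4 (0.0575) or mutant 3M replicate 3 (0.0565). At P11 alone the difference was 0.63 (SE 0.21, edgeR adjusted p = 0.0525), just short of the threshold, and it passed with DESeq2 (adjusted p = 0.0407), with the replicate number as a block (edgeR adjusted p = 0.0446) and without control replicate 2 (edgeR adjusted p = 0.0211). At P29 it was 0.48 (SE 0.19, edgeR adjusted p = 0.208) and at 3M 0.04 (SE 0.19, edgeR adjusted p = 0.988). Its 3' end overlaps 93 bases of the antisense gene Gm15518, which had 6 counts in all against 2818 of Ift57.

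The other peripheral subunits of IFT-B did not pass the test in any genotype comparison. Ift172, the largest IFT-B subunit, averaged 15.8 ± 5.12 CPM in P11 mutants and 9.86 ± 5.57 CPM in P11 controls, but 9.93 ± 3.71 CPM in P29 mutants and 15.7 ± 2.99 CPM in P29 controls. Cluap1, a subunit that binds other IFT-B members at the periphery, averaged 34.2 ± 6.79 CPM in 3M mutants and 23.2 ± 7.29 CPM in 3M controls, a difference of 0.56 (SE 0.25, edgeR adjusted p = 0.346). Ift80 and the microtubule-binding subunit Traf3ip1 differed by at most 0.42 in either direction at any age. The summed level of the 6 peripheral genes overlapped between genotypes at each age.

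The core of IFT-B holds the scaffold subunits Ift88 and Ift52, the tubulin-binding pair Ift74 and Ift81, the small GTPases Ift22 and Ift27 with the partner of Ift27, Hspb11, and Ift46, Ttc26 and the Ttc30 genes. None of the 11 tested core genes passed the test at any age or on average. Ift52 came nearest, at 23.1, 40.1, 19.2 and 29.6 CPM in P11 mutants against 15.04, 22.9, 12.7 and 20.7 CPM in P11 controls, a difference of 0.66 (SE 0.27, edgeR adjusted p = 0.129) with overlapping groups. Ift27 averaged 12.2 ± 1.26 CPM in P11 mutants and 17.5 ± 10.48 CPM in P11 controls, where 1 control library at 33.1 CPM made most of the difference; without it the log2 fold change was -0.02 in place of -0.51. Ttc30b had the widest core difference at 3M, at -0.90, with 5.71 ± 1.35 CPM in 3M mutants and 10.7 ± 2.77 CPM in 3M controls. The core sum was 229 to 261 CPM in P11 mutants against 197 to 247 CPM in P11 controls, 165 to 205 CPM in P29 mutants against 178 to 207 CPM in P29 controls, and 171 to 196 CPM in 3M mutants against 169 to 209 CPM in 3M controls.

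IFT-A, which serves return traffic and the entry of membrane receptors, has the core subunits Ift122, Ift140 and Wdr19 and the outer subunits Wdr35, Ift43 and Ttc21b. None of the 6 passed the genotype test at any age. Ift43 averaged 44.0 ± 6.74 CPM in P29 mutants and 30.6 ± 2.70 CPM in P29 controls (log2 fold change 0.53, SE 0.23, edgeR adjusted p = 0.337), and the groups did not overlap. Ift140 averaged 8.40 ± 3.02 CPM in P29 mutants and 13.6 ± 5.02 CPM in P29 controls, and Wdr19 averaged 19.7 ± 2.18 CPM in 3M mutants and 13.01 ± 4.20 CPM in 3M controls. Of the dynein-2 chains, Dync2h1 averaged 100.5 ± 13.8 CPM in P11 mutants and 84.9 ± 7.47 CPM in P11 controls, and the light intermediate chain Dync2li1 averaged 13.1 ± 5.03 CPM in P11 mutants and 14.4 ± 7.90 CPM in P11 controls; neither passed. Tulp3, which carries receptors into the cilium on IFT-A, was at most 14.01 CPM in any library. Trip11 was at 167, 152, 134 and 136 CPM in 3M mutants, against 175, 183, 199 and 152 CPM in 3M controls; the ranges overlapped and the difference of -0.27 (SE 0.12) did not pass (edgeR adjusted p = 0.340).

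**Figure D3:**
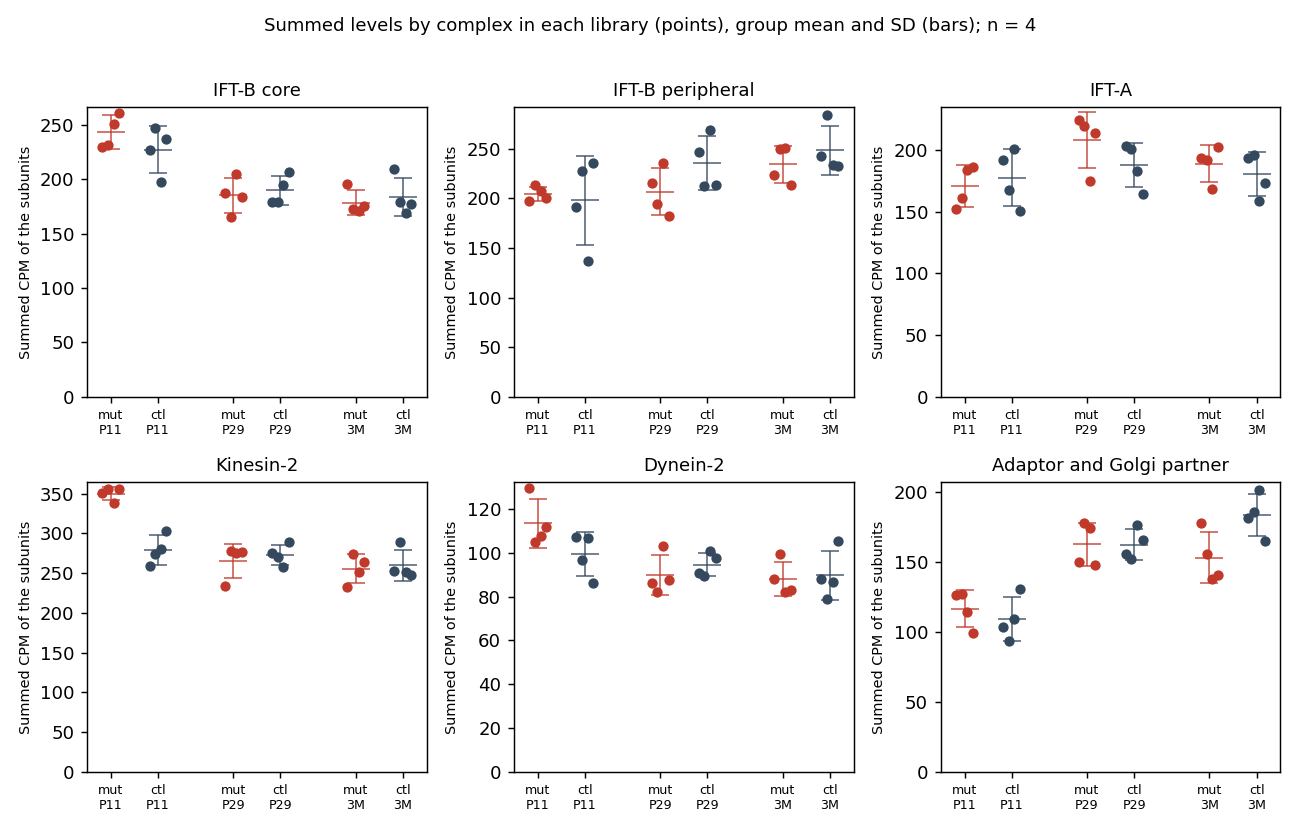
Summed TMM-scaled CPM of each complex in each library (points), with group mean and SD (n = 4), mutants in red left of controls in blue at each age, on axes that start at 0. The kinesin-2 sum in P11 mutants (339 to 356 CPM) stands above the P11 controls (259 to 303 CPM), while the IFT-B and IFT-A sums overlap between genotypes at each age.

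Whether a genotype difference itself changed with age was tested as the difference of 2 log2 fold changes. Of the 31 members 0 passed for P29 minus P11, 0 for 3M minus P29 and 0 for 3M minus P11, beside 2.63%, 0.853% and 2.53% of all genes in either direction; 2, 2 and 4 members had an unadjusted p under 0.05, and DESeq2 and voom called 0 too. For Kif3a the genotype difference at 3M minus that at P11 was -0.59 (95% interval -1.13 to -0.05, edgeR adjusted p = 0.329), and for Ift57 it was -0.59 (-1.14 to -0.03, edgeR adjusted p = 0.361). For Ift20 the difference at P29 minus that at P11 was -0.33 (-0.76 to 0.10, edgeR adjusted p = 0.547). An age at which the effect of genotype on these 3 genes differs was therefore not shown. Kif3a was called only at P11, Ift20 at P29 and over the ages combined, and Ift57 only over the ages combined.

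Between P11 and P29 the RPE matures alongside the outer segments it faces, and the summed RPE markers were 42948 to 45397 CPM in P29 mutants against 18844 to 19801 CPM in P11 mutants, and 49870 to 50732 CPM in P29 controls against 19807 to 20708 CPM in P11 controls. The erythrocyte markers were lower at P29, at 3758 to 4037 CPM in P29 mutants against 28944 to 33368 CPM in P11 mutants, and at 2566 to 3199 CPM in P29 controls against 26946 to 29031 CPM in P11 controls. Since such shifts change the share of every other transcript, the age values below describe the samples as collected, and the part of cell makeup in them was not tested. In mutants 3 of 31 members were higher and 4 lower at P29 than at P11, beside 16.4% and 15.2% of all genes; in controls 4 were higher and 3 lower, beside 16.5% and 15.6%. At 3M against P29, 1 member was higher and 1 lower in mutants, beside 5.44% and 7.27% of all genes, and 0 were higher and 1 lower in controls, beside 3.49% and 8.5%; 4 members of each genotype had an unadjusted p under 0.05 there, and voom with quality weights also called 0 higher in controls, while DESeq2 called 1. At 3M against P11, 4 were higher and 7 lower in mutants, beside 20.7% and 21.8%, and 5 were higher and 2 lower in controls, beside 20% and 23.7%; the 2 lower became 5 with median-of-ratios size factors and 6 with DESeq2. The shares of members lie near or below those of all genes. The 2 comparisons of a genotype with P11 share its P11 libraries, and a fall with age in mutants shares them with the P11 genotype contrast.

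Ift57, Wdr35 and Trip11 were higher at the later ages in both genotypes. Ift57 was at 72.8 ± 11.0 CPM in P29 mutants against 37.7 ± 2.00 CPM in P11 mutants, and at 51.9 ± 6.37 CPM in P29 controls against 24.4 ± 6.12 CPM in P11 controls (SD, n = 4 each). It rose by 0.95 (SE 0.19, edgeR adjusted p = 3.363e-05) in mutants and by 1.09 (SE 0.21, edgeR adjusted p = 7.629e-06) in controls, and neither pair of groups overlapped. At 3M it was still above P11, by 0.61 (SE 0.19, edgeR adjusted p = 0.00703) in mutants and by 1.20 (SE 0.21, edgeR adjusted p = 5.737e-07) in controls. Wdr35 was at 90.5 ± 9.77 CPM in P29 mutants against 50.4 ± 13.97 CPM in P11 mutants, and at 82.5 ± 6.77 CPM in P29 controls against 56.3 ± 14.8 CPM in P11 controls. Its rise was 0.84 in mutants (SE 0.17, edgeR adjusted p = 3.362e-05) and 0.54 in controls (SE 0.17, edgeR adjusted p = 0.00975); the control call was lost without control P11 replicate 2 (0.0882). Trip11 was at 153 ± 15.4 CPM in P29 mutants against 108 ± 12.9 CPM in P11 mutants, and at 152 ± 9.84 CPM in P29 controls against 99.2 ± 16.5 CPM in P11 controls. It rose by 0.51 in mutants (SE 0.12, edgeR adjusted p = 0.000414) and 0.61 in controls (SE 0.12, edgeR adjusted p = 2.499e-05), and at 3M stood 0.46 above P11 in mutants and 0.84 above P11 in controls. These 3 genes belong to peripheral IFT-B, to IFT-A and to the Golgi, where Trip11 holds IFT20.

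**Figure D4:**
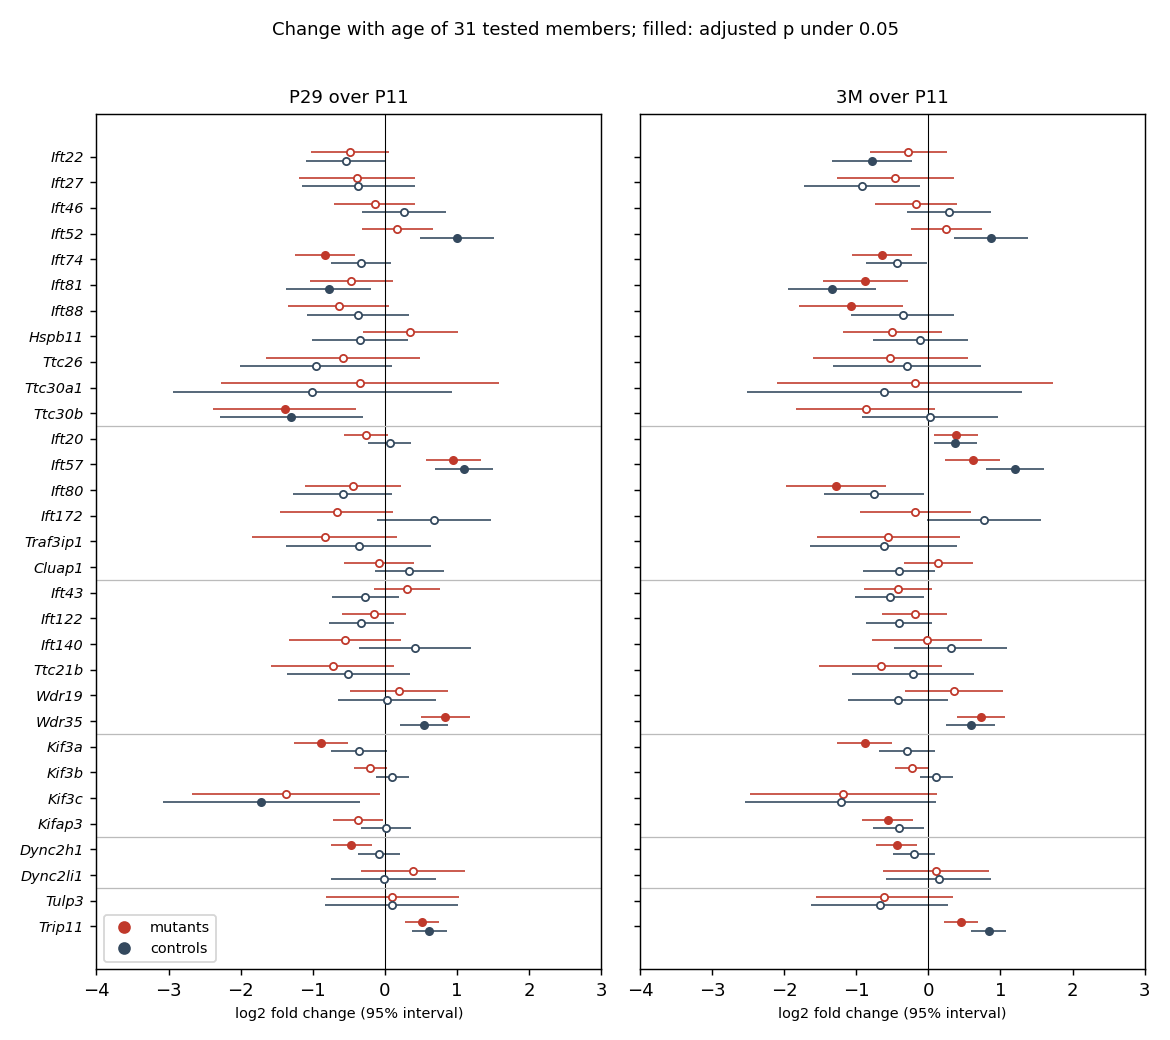
Log2 fold change with age of the 31 tested members, P29 over P11 (left) and 3M over P11 (right), in mutants (red) and controls (blue), with 95% intervals; filled points have an adjusted p under 0.05. Ift57, Wdr35 and Trip11 lie right of 0 and filled in both genotypes and both panels, while Ift81 in the right panel is filled and left of 0 in both genotypes.

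Within core IFT-B 9 of 11 tested genes had a log2 fold change below 0 at P29 against P11 in each genotype. Of all genes, 49.4% lay above 0 in mutants and 48.6% in controls. Of the 11, 2 were called lower in each genotype, beside 15.2% of all genes in mutants and 15.6% in controls. Ift52 was called higher in controls. Ift52 was at 35.4 ± 3.91 CPM in P29 controls against 17.8 ± 4.77 CPM in P11 controls, and rose by 0.99 (SE 0.26, edgeR adjusted p = 0.00148). In mutants it was at 31.6 ± 9.98 CPM at P29 against 28.02 ± 9.15 CPM at P11, which did not pass, and the test of the difference between the genotypes had an edgeR adjusted p of 0.268. At 3M Ift52 was still 0.87 above P11 in controls (edgeR adjusted p = 0.00457). Ift81 was at 18.04 ± 4.99 CPM in 3M mutants against 33.1 ± 6.74 CPM in P11 mutants, a difference of -0.87 (SE 0.30, edgeR adjusted p = 0.0131), and at 12.9 ± 4.39 CPM in 3M controls against 32.3 ± 11.3 CPM in P11 controls, a difference of -1.34 (SE 0.31, edgeR adjusted p = 0.000195). At P29 against P11 Ift81 was called in controls, at -0.78 (edgeR adjusted p = 0.0357), a call that 4 of 8 leave-one-out fits lost. Its partner Ift74 was at 33.2 ± 12.7 CPM in P29 mutants against 59.2 ± 3.65 CPM in P11 mutants, a difference of -0.83 (SE 0.21, edgeR adjusted p = 0.00115), while controls, at 40.2 ± 2.26 CPM at P29 against 51.0 ± 10.7 CPM at P11, did not pass. Ift88 fell by 1.07 in 3M mutants relative to P11 mutants (SE 0.37, edgeR adjusted p = 0.0131), a call lost without mutant P11 replicate 3 (0.102), 3M replicate 1 (0.0555) or 3M replicate 3 (0.051). Ift22 was at 16.7 ± 1.29 CPM in 3M controls against 29.0 ± 4.76 CPM in P11 controls, a difference of -0.79 (edgeR adjusted p = 0.0182) that was lost without control P11 replicate 2 (0.0537). Ttc30b was called lower at P29 than at P11 in both genotypes, at levels of 3.98 and 4.25 CPM at P29. The log2 fold change was -1.39 in mutants (edgeR adjusted p = 0.0264) and -1.30 in controls (edgeR adjusted p = 0.0394). Both calls were lost without the filter on low counts (edgeR adjusted p = 0.0589 and 0.0832). The control call was also lost with only the libraries compared (edgeR adjusted p = 0.105) and with voom (adjusted p = 0.0992). On leaving out 1 library, the mutant call held in 4 of 8 fits and the control call in 2 of 8. The summed core was at 165 to 205 CPM in P29 mutants against 229 to 261 CPM in P11 mutants, without overlap, and at 178 to 207 CPM in P29 controls against 197 to 247 CPM in P11 controls.

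Among peripheral IFT-B genes, Ift20 itself was at 111.5 ± 9.40 CPM in 3M mutants against 71.3 ± 12.8 CPM in P29 mutants, with no overlap. It rose by 0.64 (SE 0.16, edgeR adjusted p = 0.00152), and this call held in every alternative and without any 1 of the 8 libraries. The rise shares its P29 mutant libraries with the P29 genotype contrast, in which Ift20 was called lower, so the 2 calls are not independent. In controls the same step was 0.31 (SE 0.15, edgeR adjusted p = 0.204), and the test of the difference between the steps had an edgeR adjusted p of 0.694. At 3M against P11 Ift20 rose by 0.38 in mutants (edgeR adjusted p = 0.0384) and 0.37 in controls (edgeR adjusted p = 0.0387). Both calls were lost with median-of-ratios size factors (edgeR adjusted p = 0.0839 and 0.0763) and with DESeq2 (adjusted p = 0.126 and 0.115). The control call was also lost with only the libraries compared (edgeR adjusted p = 0.0909). On leaving out 1 library, each of these calls held in 3 of 8 fits. Ift80 was at 9.56 ± 1.44 CPM in 3M mutants against 23.2 ± 4.04 CPM in P11 mutants, and fell by 1.28 (SE 0.35, edgeR adjusted p = 0.0018). In 3M controls it was at 11.4 ± 5.10 CPM against 19.2 ± 5.89 CPM in P11 controls, which did not pass. Cluap1 fell by 0.75 in 3M controls relative to P29 controls (SE 0.25, edgeR adjusted p = 0.0316), a call lost without control P29 replicate 3 (-0.49, adjusted p = 0.284) or control 3M replicates 2, 3 or 4 (0.073, 0.0737 and 0.16).

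Of the 4 tested kinesin-2 genes, 4 lay below 0 in P29 mutants against P11 mutants and 2 in P29 controls against P11 controls. Of all genes, 49.4% lay above 0 in that mutant comparison and 48.6% in that control comparison. Kif3a was at 42.1 ± 10.1 CPM in P29 mutants against 77.9 ± 6.76 CPM in P11 mutants, a difference of -0.88 (SE 0.19, edgeR adjusted p = 0.000102), and at 3M the value relative to P11 was -0.89 (edgeR adjusted p = 6.23e-05). In controls it was at 38.4 ± 3.70 CPM at P29 against 49.3 ± 10.1 CPM at P11, a difference of -0.36 (SE 0.20) that did not pass (edgeR adjusted p = 0.16), and the difference between genotypes had an edgeR adjusted p of 0.4. Kifap3 fell by 0.57 in 3M mutants relative to P11 mutants (SE 0.18, edgeR adjusted p = 0.00602). In controls Kifap3 was also lower, at 54.6 ± 11.2 CPM at 3M against 71.9 ± 24.5 CPM at P11, which did not pass. Dync2h1 was at 72.6 ± 5.23 CPM in P29 mutants against 100.5 ± 13.8 CPM in P11 mutants. This difference was -0.47 (SE 0.15, edgeR adjusted p = 0.0079), and at 3M in mutants it was -0.44 relative to P11 (edgeR adjusted p = 0.00984). Both calls were lost without mutant P11 replicate 1 (edgeR adjusted p = 0.057 and 0.065). Kif3b, the most abundant member, changed in no age comparison, with values from -0.23 to 0.11. Kif3c fell by 1.72 in P29 controls relative to P11 controls (edgeR adjusted p = 0.0485), with 1 P29 control library at 0, and the call was lost without control P11 replicate 2 (0.132) or any 1 of 4 other libraries. In IFT-A, Ift43 fell by 0.73 in 3M mutants relative to P29 mutants (SE 0.24, edgeR adjusted p = 0.027), at 26.6 ± 10.1 CPM and 44.0 ± 6.74 CPM; the call was lost on leaving out 6 of the 8 libraries in turn. The remaining members, Ift27, Ift46, Hspb11, Ttc26, Ttc30a1, Ift172, Traf3ip1, Ift122, Ift140, Ttc21b, Wdr19, Dync2li1 and Tulp3, passed the test in no comparison of genotype or age.

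The ciliary genes that work with IFT were set beside these members in 9 lists with 109 tested genes. In P11 mutants 11 of the 109 were higher and 2 lower than in P11 controls, beside 3.26% and 3.67% of all genes. Higher were 4 genes of the transition zone, the gate at the ciliary base: Cep290 (0.46, edgeR adjusted p = 0.00446), Rpgrip1 (0.34, 0.0018), Rpgr (0.73, 0.0421) and Ahi1 (0.54, 0.000255). Higher too were the basal body and satellite genes Cep83 (1.59, edgeR adjusted p = 0.00866) and Pcm1 (0.43, 0.0204), the ciliary membrane GTPase Arl13b (0.86, 0.00554), the photoreceptor tubby protein gene Tulp1 (0.33, 0.0114), the cytoplasmic dynein-1 chains Dync1h1 (0.40, 0.00135) and Dync1i2 (0.28, 0.0491) and the kinesin-1 heavy chain Kif5b (0.36, 0.00829). The light chain genes Dynll2 (-0.29, edgeR adjusted p = 0.0202) and Dynlrb1 (-0.69, 5.863e-05), which serve both dyneins, were lower. The BBSome, the coat that IFT trains carry, had 0 of 13 genes called between genotypes at any single age.

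In P29 mutants 3 of the 109 were higher, Unc119 (0.38, edgeR adjusted p = 2.969e-05), a carrier of lipid-modified proteins, Tulp1 (0.43, 0.000846) and Mak (0.78, 0.000117), a kinase of the ciliary tip; 1, the light chain gene Dynlt3 (-0.38, 0.00169), was lower, beside 1.63% and 1.21% of all genes. In 3M mutants 4 were higher, Rpgrip1 (0.45, edgeR adjusted p = 8.152e-05), Tulp1 (1.05, 3.961e-14), Mak (1.01, 3.293e-05) and the neuronal kinesin-1 gene Kif5a (1.92, 4.572e-06), and 0 were lower, beside 2.13% and 0.48%. Averaged over ages 11 were higher and 3 lower, beside 4.34% and 3.13%, among them the dynein-2 intermediate chain gene Wdr60 (0.44, edgeR adjusted p = 0.00247), which no single age called. The genotype effect itself differed between ages for 9 of these genes. Of the 109, 3 were called higher and 1 lower for P29 minus P11, beside 1.45% and 1.18% of all genes. For 3M minus P29 1 was called higher and 0 lower, beside 0.61% and 0.244%. For 3M minus P11 5 were called higher and 1 lower, beside 1.94% and 0.585%. At 3M minus P11 the difference was 0.72 for Tulp1 (edgeR adjusted p = 0.000167), 0.83 for Mak (0.0237), 1.73 for Kif5a (0.00316), 0.77 for Dynlrb1 (0.00407), 0.84 for the dynactin gene Dctn4 (0.0469) and -0.76 for Pcm1 (0.00497). At P29 minus P11 it was 0.65 for Dynlrb1 (edgeR adjusted p = 0.0247), 0.50 for Unc119 (0.000184), -0.58 for Ahi1 (0.0176) and 1.78 for Mkks (0.0348), a chaperonin-like gene of the BBSome list. At 3M minus P29 it was 0.62 for Tulp1 (edgeR adjusted p = 0.00466). Mkks averaged 9.44 ± 3.10 CPM in P11 mutants and 14.7 ± 3.80 CPM in P11 controls, and 21.6 ± 3.68 CPM in P29 mutants and 9.76 ± 3.89 CPM in P29 controls (SD, n = 4 each). Tulp1, Mak, Rpgrip1 and Unc119 are known from photoreceptors. Of 16 rod markers, 15 were higher in mutants at P29 and 15 at 3M, with medians of 0.49 and 0.75. At P11 7 were higher, with a median of 0.13. Of 12 tested inner retinal neuron markers, 2, 3 and 5 were higher at P11, P29 and 3M, with medians of 0.52, 0.19 and 2.22. Of 7 tested cone markers, 1, 0 and 3 were higher, with medians of -0.0018, 0.43 and 1.09. The part of rod, cone and inner retinal RNA in the values of these genes, and of the IFT genes, was not tested.

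Between P11 and P29 these lists changed in both directions. In P29 mutants 10 of the 109 genes were higher and 27 lower than in P11 mutants, beside 16.4% and 15.2% of all genes, and in P29 controls 9 were higher and 26 lower than in P11 controls, beside 16.5% and 15.6%. In controls the BBSome had 0 genes higher and 4 lower, with Ttc8 at -1.43 (edgeR adjusted p = 1.999e-06) and Arl6, the GTPase that recruits it, at -1.13 (2.184e-05). The transition zone had 2 higher and 5 lower, with Rpgrip1 at -2.14 (edgeR adjusted p = 4.657e-42) and Cep290 at -0.97 (6.108e-11). Of the dynein-2 chains outside the members, Wdr60 fell by 1.33 (edgeR adjusted p = 2.958e-09) while Dynlt3 rose by 0.99 (8.579e-18). The median over the 109 genes was -0.24 in mutants and -0.22 in controls, beside -0.37 and -0.27 for the 31 IFT members and -0.01 and -0.02 for all genes tested. Of the RFX factors, Rfx1 averaged 18.8 ± 4.97 CPM in P29 mutants against 38.6 ± 8.58 CPM in P11 mutants, and fell by 0.93 in P29 controls against P11 controls (edgeR adjusted p = 0.00555), while Rfx3 averaged 19.8 ± 2.43 CPM in P29 mutants against 23.4 ± 7.53 CPM in P11 mutants.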

How the data were processed

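RNA of isolated RPE was measured in 24 libraries with the QuantSeq 3' mRNA kit on 100 ng of total RNA, with single-end reads, per the labels' protocols. The deposited files hold whole-number counts per gene, 1 file per library; STAR and mm10 are named in the submitters' processing notes. No source used here gives the counting tool, the annotation or the use of strand. Each file held 31053 gene identifiers and 5 special entries, which took 50.6% to 61.8% of all counts and stayed out of library sizes and tests. Gene symbols and positions came from GENCODE M21 (GRCm38), promoter windows from RefSeq (GRCm38.p6).

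The counts were fitted with edgeR 4.0.16 in R 4.3.3 (TMM, filterByExpr, robust quasi-likelihood, 24 libraries, 1 mean per group), which left 12303 genes; a call is a Benjamini-Hochberg adjusted p under 0.05 over all of them. Each SE comes from the fold change and its F statistic, and intervals are 1.96 SE. Group means carry the SD of 4 libraries. The alternatives tried were DESeq2 1.42.0, limma 3.58.1 voom with quality weights, edgeR on median-of-ratios size factors, no low-count filter (19634 genes), a filter of 5 CPM in 4 libraries (11931 genes), a block for the replicate number, a fit of only those libraries that are compared, and leaving out each library. The 33 members and all gene lists were chosen with earlier results of these data known. All members are named; other ciliary genes are named where a genotype comparison, or its difference between ages, called them, and for age up to 3 per list by smallest p. Tctn2, of the transition zone list, was not found by symbol. Libraries of 1 group differed by more than sampling noise in all 36 pairs (chi-square per gene 2.99 to 7.25). None was thus taken as 1 library sequenced again. Separate preparations of 1 RNA sample can differ in this way too, so the check does not tell them from separate animals. The fit was tested on simulated data with 200 changed genes. The changed genes averaged above 5 CPM, so members below that level were not covered. Floors and counting errors cover counting error only.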

Additional observations from a re-analysis of the deposited data

Results flagged for a closer look

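Dixon's ratio, the gap of the extreme library to its nearest neighbour over the range of its group of 4, passed its 95% critical value in 9 of 186 combinations of a tested member and a group; chance flags about 1 in 20. In P11 mutants Ift80 was at 29.2 CPM in replicate 4, against 20.99 to 21.4 CPM in the others. In P29 mutants Ift57 was at 56.4 CPM in replicate 4, against 76.4 to 80.2 CPM, and Wdr35 was at 76.0 CPM in replicate 3, against 93.6 to 96.5 CPM. In 3M mutants Ift20 was at 97.4 CPM in replicate 4, against 115 to 117 CPM, Kif3c was at 7.86 CPM in the same library, against 3.14 to 3.91 CPM, and Ift80 was at 7.43 CPM in replicate 1, against 10.0 to 10.5 CPM. In controls Ift27 was at 33.1 CPM in P11 replicate 2, against 10.1 to 13.7 CPM, Ift74 was at 24.0 CPM in 3M replicate 3, against 40.2 to 42.5 CPM, and Traf3ip1 was at 11.3 CPM in 3M replicate 2, against 5.25 to 5.89 CPM. The 11.3 CPM of Traf3ip1 and the 7.86 CPM of Kif3c, each the highest of its group, rest on 25 counts in that control library and 18 in that mutant library.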

How the results depend on the processing

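No value reversed in direction past its threshold under the alternatives run. Counts of called members that moved by over 1.5 times were those higher in P11 mutants, 1 in the fit described and 2 with the replicate block or DESeq2; lower in P29 relative to P11 controls, 3 against 0 with only the libraries compared and 1 with voom; lower in 3M relative to P29 controls, 1 against 0 without the low-count filter, and higher there 0 against 1 with DESeq2; lower in 3M relative to P11 controls, 2 against 5 with median-of-ratios size factors and 6 with DESeq2; and lower in 3M relative to P29 mutants, 1 against 2 with voom or DESeq2. On leaving out 1 library the count higher in P11 mutants ran from 0 to 2, lower in P29 mutants from 0 to 1, lower in P29 against P11 mutants from 2 to 4, lower in 3M against P29 mutants from 0 to 1, lower in P29 against P11 controls from 0 to 2, lower in 3M against P29 controls from 0 to 1, lower in 3M against P11 controls from 2 to 5, and higher in mutants over all ages from 0 to 2. The Ift20 log2 fold change ran from -0.445 to -0.0399 at P11 and from -0.73 to -0.51 at P29. The cause of these shifts was not tested. Median-of-ratios size factors moved the median of all genes from -0.05 to -0.10 for 3M against P11 controls. Same-numbered mutant and control libraries did not deviate together (correlations -0.02 to 0.031), so the numbers do not pair the samples; beside the count above, the replicate block ended the calls of Kif3c at P29 in controls (edgeR adjusted p = 0.0543) and of Ift20 at 3M in mutants (0.0503). Depth limits the low members: in the 31 tested, the standard error at P11 ran from 0.12 for Kif3b to 0.96 for Ttc30a1.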
